A study of Mus musculus with 16 samples.

Results

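The 46 genes described here encode the machinery that brings secretory and membrane proteins into the endoplasmic reticulum (ER), folds and glycosylates them there, and removes those that fail to fold. They were chosen by symbol from their known functions, with earlier results of these data known. There were 19 folding genes, 12 genes of translocation and signal peptide cleavage and 5 subunits of the oligosaccharyltransferase. The rest were 9 genes of ER-associated degradation and 1 cargo receptor for export. All 46 were found among the 24421 genes of the count table, and all 46 were among the 11978 genes that passed the filter on low counts.

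RNA was sequenced in bulk from type 1 conventional dendritic cells (cDC1s), which take up dead cells and present their antigens to CD8 T cells, sorted from the spleens of C57BL6 mice at steady state. The 16 libraries formed 4 groups of 4: mature Xbp1flIre1fl, mature Xbp1fl, immature Xbp1flIre1fl and immature Xbp1fl cells. In both lines the named genes carried floxed alleles that had not been deleted, and the submitters regard both lines as functionally wild type, so that no group lacked either gene. The labels give no ages, no sort gates and no statement on whether the replicates are different animals, so p-values measure the spread between libraries.

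Secretory proteins enter the ER through the Sec61 channel, lose their signal peptide and receive N-linked glycans while they are still being made. BiP (Hspa5) and its cofactors, the lectin chaperones and the protein disulphide isomerases then fold them, and chains that stay unfolded are handed by lectins and mannosidases to membrane complexes around Sel1l and Syvn1, pulled into the cytosol and degraded. The unfolded protein response raises these genes through ATF6 and through XBP1, which is made active when IRE1 splices its mRNA, and XBP1 is known for its part in the secretory apparatus and survival of dendritic cells.

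Mature cDC1s held less mRNA for most of the folding, translocation and glycosylation machinery than immature cDC1s, and more for part of the degradation machinery. Of the 46 genes, 31 fell and 7 rose with maturation, and 8 did not pass the test (edgeR quasi-likelihood test, mean of both genotypes, Benjamini-Hochberg adjusted p under 0.05 over all genes tested). Maturation changed 67.6% of all tested genes by the same test, 33.4% higher and 34.2% lower, so a call alone sets no gene apart. The median log2 change over the 46 genes was -0.34, against -0.01 over all tested genes. By class, 16 of 19 folding genes, 9 of 12 translocation genes, all 5 chosen oligosaccharyltransferase genes and Lman1 fell. In the degradation class 5 of 9 genes rose, 4 were not called and 0 were called lower, although Syvn1 was called lower (log2 change -0.15, adjusted p = 0.0227) when same-numbered libraries within a genotype were paired. In bulk libraries, fewer cells of a type and less RNA per cell cannot be told apart.

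The changes were moderate. None of the 46 genes changed by more than 2-fold, while 13.75% of tested genes were called and changed by more than 2-fold, and the largest change was 1.78-fold lower, for Sdf2l1 and Rpn1. For 22 genes every mature library lay below every immature library, for 5 every mature library lay above, and for 19 the stages overlapped; over all tested genes these separations occurred for 33.0%, 15.0% with mature below and 18.0% with mature above. Counting error was small, since each of the 46 genes had at least 237 counts in every library.

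**Figure D1:**
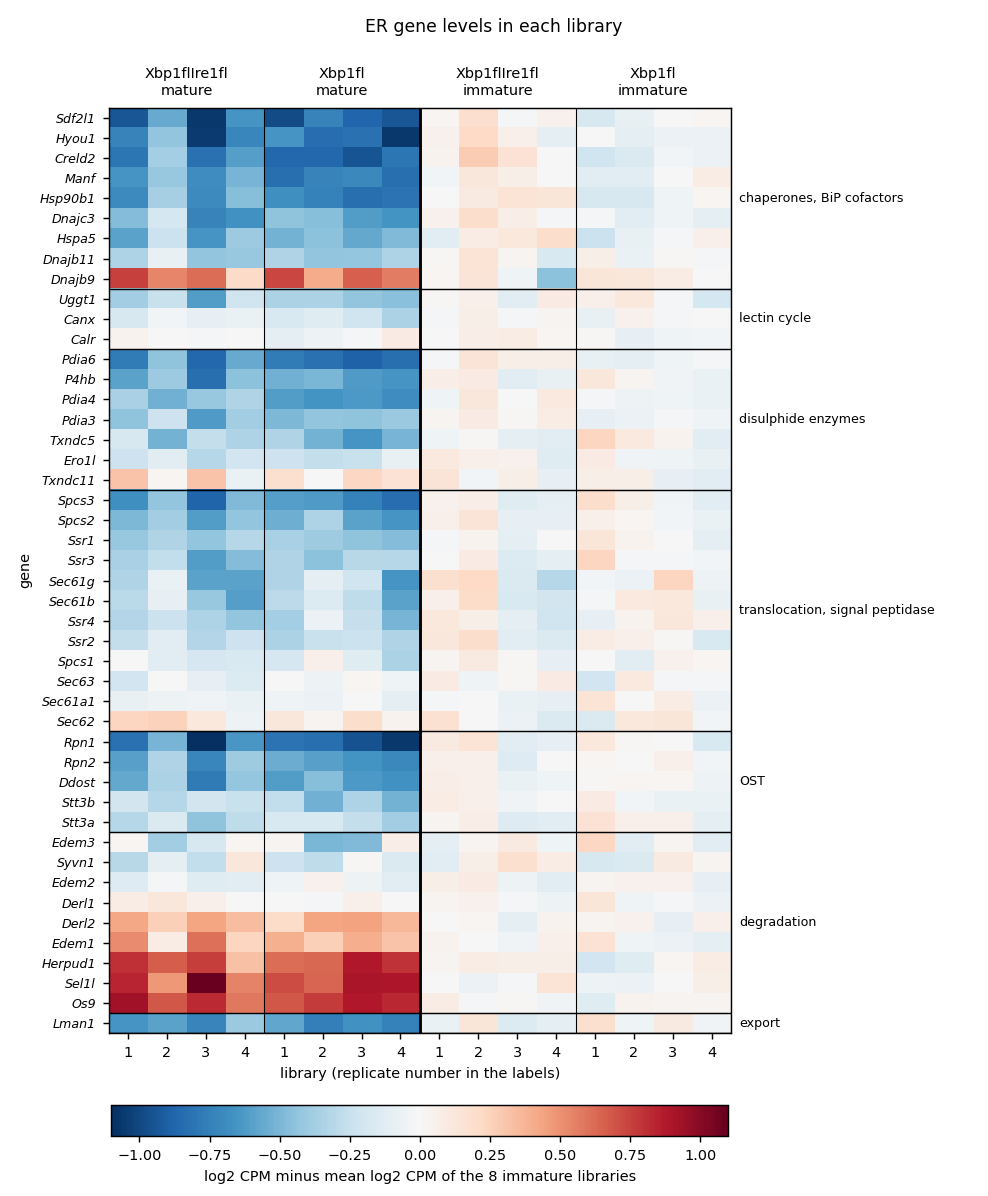
Level of each of the 46 genes in each of the 16 libraries, as log2 CPM minus the mean log2 CPM of the 8 immature libraries; rows are grouped by function, columns by group with replicate numbers, and blue is lower and red higher. Blue fills the chaperone, disulphide enzyme and oligosaccharyltransferase (OST) rows of the mature libraries apart from Dnajb9 and Txndc11, and red marks Dnajb9, Herpud1, Sel1l and Os9.

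Total counts lay between 13948232 and 16572576 for mature libraries and between 15083053 and 17000763 for immature libraries. The cDC1 markers Xcr1 and Clec9a were present in every library, at 433.7 to 709 and 111 to 195 CPM (counts per 1000000 counts, TMM-scaled) in mature cells, against 667 to 827 and 186 to 214 CPM in immature cells. Of all 10 cDC1 markers, 2 were called higher, 6 lower and 2 not called. Their sums were 6113 to 9331 CPM in mature and 10080 to 11320 CPM in immature libraries. Summed over 10 maturation markers, mature libraries held 11090 to 25300 CPM, and immature libraries 643.5 to 1146 CPM. Markers of other cells also moved with stage. All 10 B cell markers were called higher, with sums of 309.9 to 1068 CPM in mature and 104 to 163 CPM in immature cells. Of 11 macrophage markers 8 were called higher and 0 lower, with sums of 567 to 1177 CPM in mature and 151 to 632 CPM in immature cells. Of 7 plasma cell markers 5 were called higher and 1 lower, with sums of 146 to 692 CPM in mature and 94.7 to 240.4 CPM in immature cells. Of 7 plasmacytoid dendritic cell markers, 1 was higher and 1 lower, at 116 to 212 CPM summed in mature and 122 to 142 CPM in immature libraries, and no marker of these lists was at 0 in every library. Plasma cells are rich in ER genes, and the part of their RNA in the levels below was not tested. Ccr7 was lowest, among mature libraries, in Xbp1flIre1fl replicates 2 and 4 (6574 and 4988 CPM, against 8001 to 13420 CPM in the other 6), and leaving out both gave 7 genes higher and 31 lower again.

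Several of these genes carry the DNA elements through which the unfolded protein response is known to act. RefSeq promoter windows (build GRCm38.p6, 250 bases before to 50 after the start) matched 39 of the 46 genes. On either strand, these were searched for the ER stress element ERSE (CCAAT, 9 letters of any kind and CCACG, where NF-Y and ATF6 bind), for ERSE-II (ATTGG, 1 letter of any kind and CCACG) and for the XBP1 element UPRE (TGACGTGG), which share the letters CCACG on 1 strand or the other. ERSE stood in 8 of 39 windowed genes (20.5%), against 37 of the 27025 genes with a window (0.137%) and 16 of the 9210 tested genes with one (0.174%). The 8 were Hspa5, Hsp90b1 with 2 copies, Dnajc3, Creld2, Calr, Canx, Pdia6 and Syvn1. ERSE-II stood in Dnajb11 and Herpud1 (5.13%, against 0.0444% of all windowed genes) and UPRE in Txndc5 and Txndc11 (5.13%, against 0.714%). The element of Dnajb11 lay after the start, at 7 to 17. Txndc5 had 3 windows and Txndc11 had 2, with 1 element each. Both of these elements lie within the GENCODE bounds of their gene. No gene of the 46 held ERSE together with either of the others in its window.

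The sequences below show ERSE in 3 genes that fell clearly and 3 that changed little or not at all, and ERSE-II in Herpud1, which alone rose among those of the 46 genes that hold ERSE or ERSE-II. Each is given 5′ to 3′ on the strand that reads the element in its usual direction, with the fixed letters of the element in capitals. Positions are those of the element, counted back from the RefSeq start of the gene, and coordinates are those of the printed stretch, which holds 16 more bases on either side. The element of Hspa5, at -65 to -47, is not printed because GENCODE places a start of that gene before it. That of Dnajc3, at -105 to -87, is not printed either. Both genes also fell, at -0.49 for Hspa5 and -0.52 for Dnajc3 on the log2 scale. Positions in Hsp90b1 are -212 to -194 (chr10:86705622-86705672, minus strand) and -107 to -89 (chr10:86705517-86705567, plus strand, against the gene's direction). The elements lie at -126 to -108 in Creld2 (chr15:88819504-88819554, minus strand, against the gene's direction) and -98 to -80 in Pdia6 (chr12:17266475-17266525, plus strand). They lie at -162 to -144 in Calr (chr8:84847059-84847109, plus strand, against the gene's direction), -145 to -127 in Canx (chr11:50325784-50325834, minus strand), -44 to -26 in Syvn1 (chr19:6046516-6046566, plus strand) and -52 to -42 in Herpud1 (chr8:94386361-94386403, plus strand).
Hsp90b1, distal copy: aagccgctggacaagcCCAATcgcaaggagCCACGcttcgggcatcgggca
Hsp90b1, proximal copy: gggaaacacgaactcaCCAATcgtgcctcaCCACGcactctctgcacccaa
Creld2: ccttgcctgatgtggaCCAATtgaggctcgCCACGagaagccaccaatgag
Pdia6: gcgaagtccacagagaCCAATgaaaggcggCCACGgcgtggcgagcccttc
Calr: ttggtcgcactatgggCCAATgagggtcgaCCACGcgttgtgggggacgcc
Canx: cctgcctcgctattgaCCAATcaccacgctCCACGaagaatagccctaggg
Syvn1: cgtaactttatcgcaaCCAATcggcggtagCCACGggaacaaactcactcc
Herpud1: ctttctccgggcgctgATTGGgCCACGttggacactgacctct

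Of the 8 genes with ERSE, 6 fell, 0 rose and 2 were not called, with a median log2 change of -0.51. The 31 windowed genes without it had 20 lower, 7 higher and 4 not called, with a median of -0.33. Over all tested genes 34.2% were lower and 33.4% higher. All ERSE genes but Syvn1 were folding genes, a class with a median of -0.49. Those without it included Sel1l, Os9, Herpud1, Derl2 and Edem1, the degradation genes that rose. Element and class therefore cannot be told apart here. Changes among the 8 ran from -0.75 for Creld2 to -0.01 for Calr, so genes that share the element did not share a size of change. Outside the 46 genes, 8 tested genes held ERSE, of which 5 were lower, 0 higher and 3 not called. Alg12 and Derl3, also of the ER, were among the 5, at -0.26 ± 0.10 and -0.53 ± 0.16 on the log2 scale (SE). The others of the 5 were Hnrnpa3 (-0.22 ± 0.06), Ptgdr2 (-1.78 ± 0.38) and Xlr3a (-1.48 ± 0.64), which are not on the ER gene lists used here. These matches describe letters in a window and say nothing of binding in these cells.

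**Figure D2:**
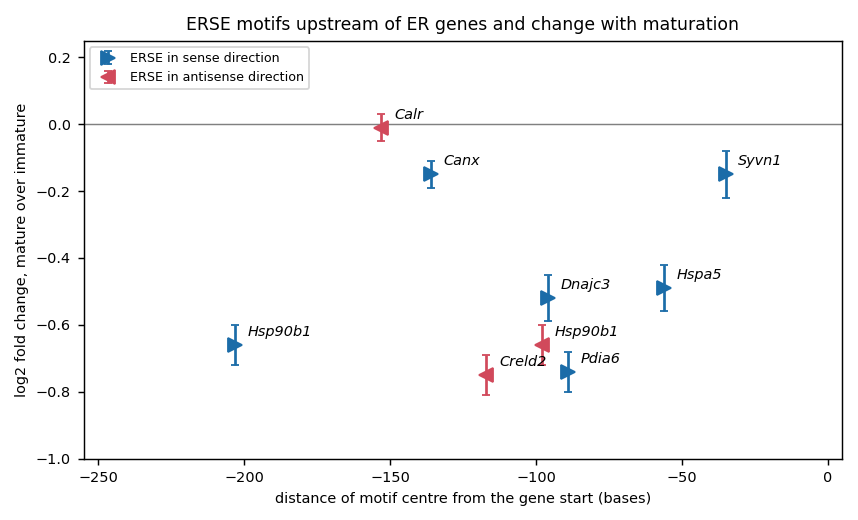
Distance of each ERSE from the gene start (x axis, bases) against the log2 fold change of its gene, mature over immature (y axis, bars: SE), for 9 copies in 8 genes; arrowheads give the direction of the element. Creld2, Pdia6 and Hsp90b1 lie lowest, and Calr lies at -0.01 with an element at a similar distance to that of Canx.

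BiP and its partners fell, apart from Dnajb9. Hspa5 (chr2:34771970-34777547), the Hsp70 chaperone of the ER lumen, had 1197 to 1595 CPM in mature libraries (median 1327) and 1594 to 2153 CPM in immature libraries (median 1909), a log2 change of -0.49 ± 0.07 (SE, adjusted p = 3.5e-06). The stages met only at the edge, at the highest mature and the lowest immature library. Hsp90b1, the ER Hsp90 known as GRP94, which folds Toll-like receptors and integrins, had 604 to 835 CPM in mature cells (median 660.2) and 949 to 1191 CPM in immature cells (median 1083), with no overlap (-0.66 ± 0.06, adjusted p = 1.5e-08).

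Several genes that serve BiP fell without overlap between stages. Sdf2l1 (chr16:17130138-17132383), a partner of ER Hsp40 proteins, had 157 to 221 CPM in mature libraries (median 174) and 289 to 371 CPM in immature libraries (median 328), a change of -0.83 ± 0.07 (adjusted p = 7.3e-09). Hyou1 (chr9:44379490-44392369), a large Hsp70-like protein that exchanges nucleotide on BiP, had 82.7 to 128 CPM in mature (median 100.5) and 159.5 to 199.8 CPM in immature libraries (median 169), a change of -0.78 ± 0.08 (adjusted p = 7.2e-08). Manf (chr9:106838312-106891979), an ER stress-induced factor that binds BiP, had 78.5 to 104 CPM in mature (median 85.9) and 128 to 152 CPM in immature libraries (median 139.9), a change of -0.67 ± 0.05 (adjusted p = 2.0e-09). In these 3 genes every mature library lay below every immature one, in both genotypes. Exons of Manf overlap Rbm15b on the same strand, and how shared reads were counted is not given in the sources used here.

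Creld2, an ER stress-induced protein with isomerase activity, and the Hsp40 cochaperone Dnajc3 fell without overlap, with log2 changes of -0.75 ± 0.06 and -0.52 ± 0.07. The Hsp40 cochaperone Dnajb11 fell by 0.35 ± 0.06, with overlap between stages. Dnajb9 (chr12:44205559-44210326), the Hsp40 that is known to hold IRE1 inactive together with BiP, went the other way. It had 32.7 to 47.4 CPM in mature libraries (median 42.4) and 20.6 to 31.2 CPM in immature libraries (median 29.3), a change of 0.56 ± 0.09 (adjusted p = 1.5e-05). All 8 mature libraries were above all 8 immature ones. Hspa5, Hsp90b1 and Dnajb9, and further on Txndc11, Sec61a1, Syvn1, Ern1, Ddit3 and Mbtps1, are given with their values although the rule for naming genes did not select them, and were chosen after their values were seen.

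The lectin chaperones moved little. Calr (chr8:84841850-84846934), the lumenal lectin chaperone calreticulin, had 1176 to 1338 CPM in mature (median 1255) and 1182 to 1329 CPM in immature libraries (median 1260), a change of -0.01 ± 0.04 (adjusted p = 0.898). The libraries of both stages covered the same range. Canx (chr11:50293961-50325673), its membrane-bound counterpart calnexin, had 486 to 606 CPM in mature (median 556) and 584 to 648 CPM in immature libraries (median 614), a change of -0.15 ± 0.04 (adjusted p = 0.0043). Uggt1 (chr1:36140027-36244720), the sensor that returns incompletely folded glycoproteins to these lectins, had 136 to 179 CPM in mature (median 162) and 182 to 226 CPM in immature libraries (median 214), a change of -0.38 ± 0.06 (adjusted p = 2.2e-05). Uggt1 did not overlap between stages, whereas Canx did.

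Among the enzymes that form and rearrange disulphide bonds, 6 of 7 fell. Pdia6 (chr12:17266545-17284770), an isomerase that acts with BiP, had 308 to 418 CPM in mature libraries (median 328) and 531 to 626 CPM in immature libraries (median 561), a change of -0.74 ± 0.06 (adjusted p = 2.3e-09). Pdia4 (chr6:47796141-47813430), another member of the family, had 179 to 229 CPM in mature (median 194) and 274 to 314 CPM in immature libraries (median 282.5), a change of -0.53 ± 0.04 (adjusted p = 4.3e-09). Neither gene overlapped between stages.

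Pdia3 (chr2:121413775-121438687), also called ERp57, works with calreticulin and calnexin and is part of the complex that loads peptides onto MHC class I. It had 914 to 1205 CPM in mature (median 1042) and 1326 to 1503 CPM in immature libraries (median 1409), a change of -0.43 ± 0.05 (adjusted p = 7.5e-07). Its stages stood apart, while those of its lectin partner Calr did not. P4hb, the classical protein disulphide isomerase, fell by 0.57 ± 0.06, Txndc5 fell by 0.41 ± 0.06, and the oxidase Ero1l, which recharges these enzymes, fell by 0.21 ± 0.05. Txndc11, a thioredoxin-like protein linked to degradation, had 52.3 to 68.4 CPM in mature (median 61.7) and 50.3 to 60.5 CPM in immature libraries (median 55.5), a change of 0.15 ± 0.06 (adjusted p = 0.0479). That call was lost without any 1 of 10 of the 16 libraries (adjusted p 0.0575 to 0.113), with upper quartile scaling (0.03, adjusted p = 0.707) and with library sizes alone, where the sign turned (-0.08, adjusted p = 0.22).

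**Figure D3:**
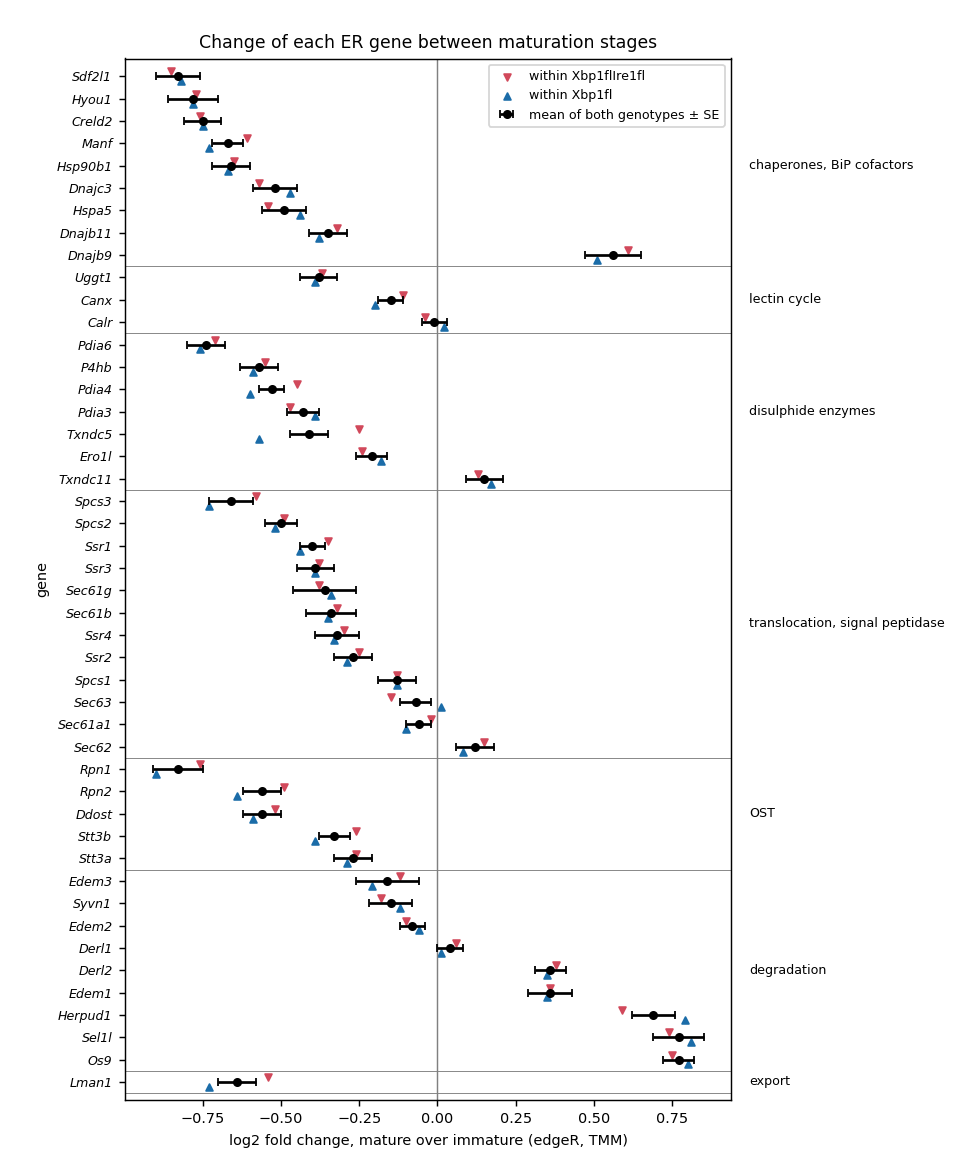
Log2 fold change of each of the 46 genes, mature over immature (x axis), as the mean of both genotypes with its SE (black) and within each genotype (triangles), grouped by function. Folding, translocation and oligosaccharyltransferase genes lie mostly left of 0, and Dnajb9, Derl2, Edem1, Herpud1, Sel1l and Os9 lie between 0.36 and 0.77.

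Changes in the translocation class differed within complexes. The channel subunit that forms the pore, Sec61a1, had 374 to 401 CPM in mature (median 384) and 376.5 to 444 CPM in immature libraries (median 398.5), a change of -0.06 ± 0.04 (adjusted p = 0.21). The small channel subunits Sec61b and Sec61g fell with log2 changes of -0.34 ± 0.08 and -0.36 ± 0.10, with overlap between stages. Sec62 and Sec63, which serve post-translational import and recruit BiP to the channel, had changes of 0.12 ± 0.06 and -0.07 ± 0.05 and were not called. The 4 subunits of the translocon-associated protein complex, Ssr1 to Ssr4, all fell, with log2 changes from -0.40 to -0.27, and Ssr1 and Ssr3 did so without overlap.

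Within the signal peptidase, which cleaves signal peptides, the noncatalytic subunits fell to different degrees. Spcs3 (chr8:54520433-54529998) had 208 to 283 CPM in mature libraries (median 244) and 349.7 to 438 CPM in immature libraries (median 385), a change of -0.66 ± 0.07 (adjusted p = 1.4e-07). Spcs2 (chr7:99837569-99863462) had 119 to 147 CPM in mature (median 130.1) and 175 to 205 CPM in immature libraries (median 186), a change of -0.50 ± 0.05 (adjusted p = 2.3e-07). Both separated the stages fully. Spcs1 changed by -0.13 ± 0.06 with an adjusted p of 0.0464, a call that was lost with DESeq2 (adjusted p = 0.0751), with a filter of 1 CPM in 8 libraries (0.0735), when same-numbered libraries were paired within genotype (0.0536) and without any 1 of 12 of the 16 libraries (adjusted p 0.0571 to 0.101).

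The 5 subunits chosen from the oligosaccharyltransferase, the enzyme that transfers the N-glycan to nascent chains, fell, and in all 5 every mature library lay below every immature library. Rpn1 (chr6:88084482-88105304), an accessory subunit that binds substrate, had 182 to 274 CPM in mature libraries (median 219) and 347 to 433 CPM in immature libraries (median 390.2), a change of -0.83 ± 0.08 (adjusted p = 3.0e-08). Rpn2 (chr2:157279017-157326319), another accessory subunit, had 213 to 278 CPM in mature (median 231) and 316.5 to 364.5 CPM in immature libraries (median 352), a change of -0.56 ± 0.06 (adjusted p = 8.2e-08). Ddost, another subunit, fell by 0.56 ± 0.06. The catalytic subunits changed less: Stt3a, which acts at the translocon during synthesis, fell by 0.27 ± 0.06, and Stt3b, which also acts after it, fell by 0.33 ± 0.05.

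The degradation class held the members that rose most. Sel1l (chr12:91806043-91849157), the scaffold of the central ubiquitin ligase complex, had 257 to 393 CPM in mature libraries (median 318) and 177 to 205 CPM in immature libraries (median 183), a change of 0.77 ± 0.08 (adjusted p = 7.8e-08). Os9 (chr10:127095650-127121131), a lectin that delivers trimmed glycoproteins to Sel1l, had 258 to 328 CPM in mature (median 299) and 158 to 183 CPM in immature libraries (median 175), a change of 0.77 ± 0.05 (adjusted p = 7.4e-10). Herpud1 (chr8:94386438-94395377), a stress-induced membrane protein that organises the complex, had 875 to 1283 CPM in mature (median 1146) and 605 to 740.0 CPM in immature libraries (median 721), a change of 0.69 ± 0.07 (adjusted p = 8.3e-08). In each of the 3 genes all mature libraries were above all immature libraries.

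Derl2, a channel-like protein of the same pathway, rose by 0.36 ± 0.05 without overlap (adjusted p = 2.6e-06), while its relative Derl1 changed by 0.04 ± 0.04 (adjusted p = 0.435) and was called lower, at -0.19, only with library sizes alone. Edem1, which marks terminally misfolded glycoproteins through their mannose residues, rose by 0.36 ± 0.07 (adjusted p = 0.00011), while Edem2 and Edem3 of the same family changed by -0.08 ± 0.04 and -0.16 ± 0.10 and were not called. Syvn1 (HRD1), the ligase that Sel1l supports, had 50.6 to 67.9 CPM in mature (median 54.6) and 55.4 to 70.6 CPM in immature libraries (median 64.5), a change of -0.15 ± 0.07 (adjusted p = 0.070). The ligase therefore did not rise with its scaffold: Sel1l rose 1.71-fold, and Syvn1 was 1.11-fold lower without passing the test. Lman1 (chr18:65980738-66022580), the cargo receptor that carries glycoproteins from the ER to the Golgi, had 35.2 to 44.6 CPM in mature (median 37.5) and 53.3 to 66.9 CPM in immature libraries (median 57.4), a change of -0.64 ± 0.06 (adjusted p = 4.6e-08), with no overlap.

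**Figure D4:**
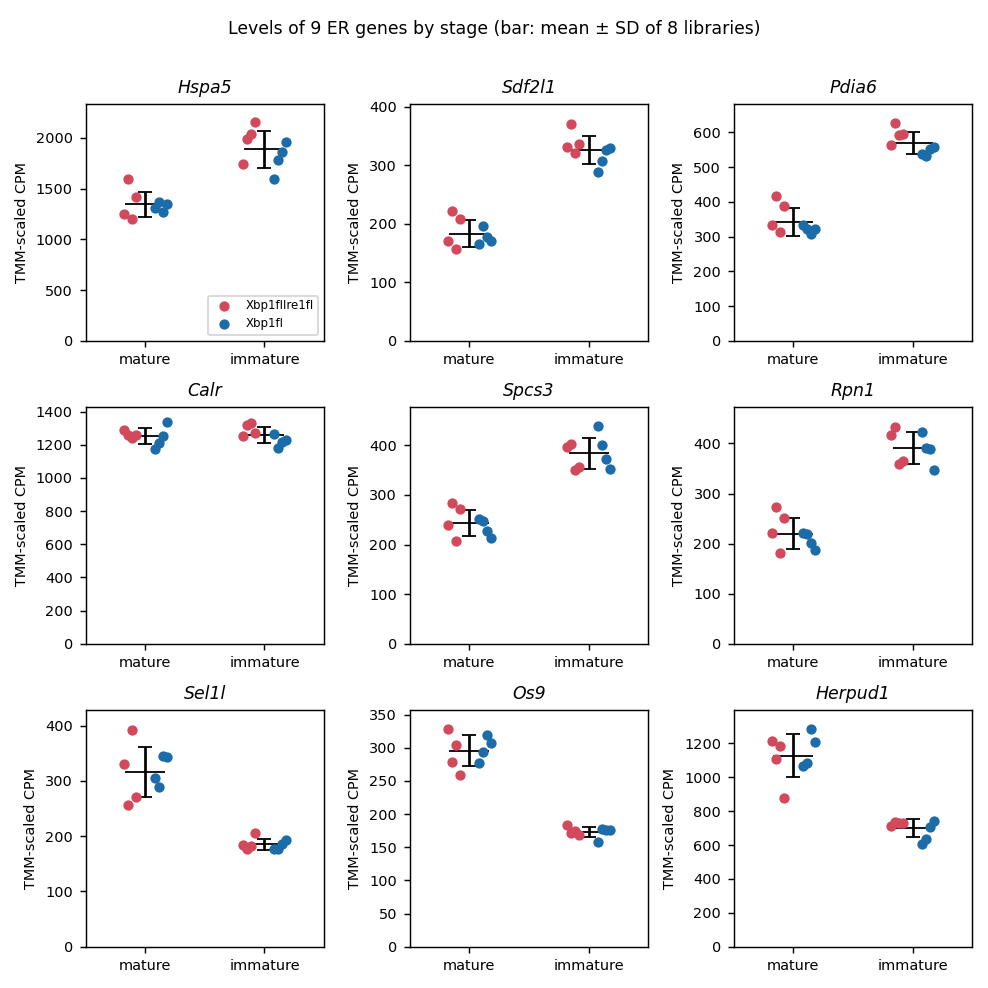
TMM-scaled CPM of 9 genes in each library, mature left and immature right, with Xbp1flIre1fl in red and Xbp1fl in blue; bars give the mean ± SD of 8 libraries. Sdf2l1, Pdia6, Spcs3 and Rpn1 separate the stages with mature lower, Sel1l, Os9 and Herpud1 with mature higher, Calr does not separate them, and in Hspa5 the highest mature library meets the lowest immature one.

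Per kilobase of exon, the scale on which genes can be compared, the level of Calr was highest among the 46 genes over both stages, with 574 CPM per kb in mature and 577 CPM per kb in immature cells. Herpud1 followed at 578 CPM per kb in mature and 358.5 CPM per kb in immature cells, Pdia3 at 378 CPM per kb in mature and 509 CPM per kb in immature cells, and Hspa5 at 358 CPM per kb in mature and 503 CPM per kb in immature cells. In the mature mean Herpud1 and Calr were thus level, whereas in the immature mean Herpud1 lay below Calr, Pdia3, Hspa5 and Hsp90b1 (382 CPM per kb). Edem3 was lowest, at 3.20 CPM per kb in mature and 3.58 CPM per kb in immature cells.

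Summed over classes, the balance between folding and degradation CPM differed between stages. The sums are not divided by exon length, so longer genes weigh more in them. The 19 folding genes summed to 6684 to 8088 CPM in mature libraries (median 7026) and 9097 to 10260 CPM in immature libraries (median 9494), a ratio of means of 0.746. Translocation genes summed to 1417 to 1622 CPM in mature cells and 1766 to 2045 CPM in immature cells (ratio 0.797), and oligosaccharyltransferase genes to 1017 to 1298 CPM in mature cells and 1522 to 1740 CPM in immature cells (ratio 0.691). Degradation genes summed to 2082 to 2659 CPM in mature and 1604 to 1732 CPM in immature libraries (ratio 1.44). These 4 sums did not overlap between stages. The degradation sum was 27.6% to 39.2% of the folding sum in mature libraries, against 16.9% to 18.1% in immature libraries. This share does not depend on how libraries are scaled, since both sums come from the same library. Without Herpud1, the most abundant degradation gene, it was 14.8% to 21.5% in mature libraries and 9.68% to 11% in immature ones. Without Calr, Pdia3 and Hspa5 as well, it was 29.6% to 43.1% in mature libraries and 18.2% to 20.4% in immature ones. Under all 3 sums the stages stood apart.

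**Figure D5:**
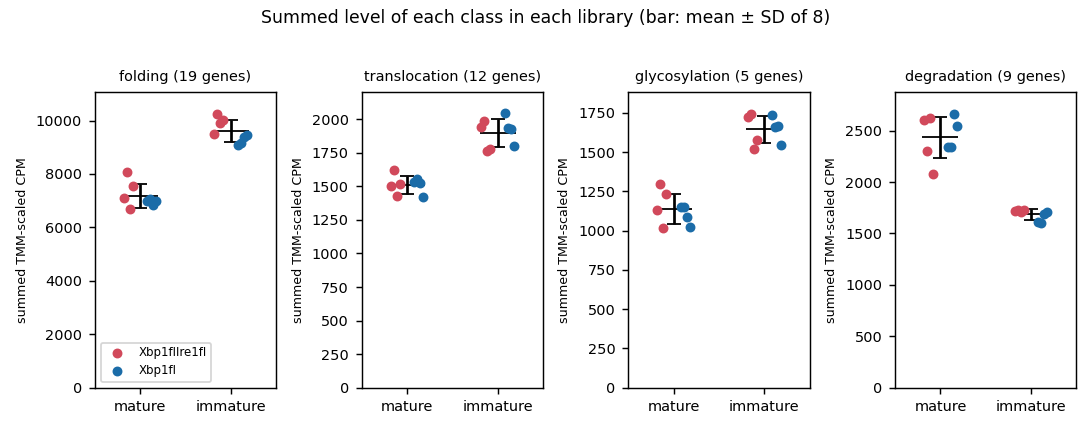
Summed TMM-scaled CPM of the genes of each class in each library, mature left and immature right, with Xbp1flIre1fl in red and Xbp1fl in blue; bars give the mean ± SD of 8 libraries. Mature libraries lie below immature ones for folding, translocation and glycosylation, and above them for degradation.

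The mature libraries were not alike. Xbp1flIre1fl replicates 2 and 4, the mature libraries with the lowest Ccr7, had the highest folding sums (8088 and 7551 CPM, against 6684 to 7104 CPM in the other 6) and the lowest degradation sums (2302 and 2082 CPM, against 2338 to 2659 CPM). Both sums in these libraries were thus nearer to those of immature cells, and neither overlapped with them. Without both, 7 genes were higher and 31 lower, as with them, but Syvn1 was then called lower (log2 change -0.23, adjusted p = 0.00416) and Spcs1 was not called.

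For none of the 46 genes did the maturation change pass the test of a difference between genotypes. Within Xbp1flIre1fl, 6 of the 46 genes rose and 29 fell (all tested genes: 53.5% called, 27.4% higher and 26.1% lower), and within Xbp1fl also 6 rose and 29 fell (56.8% called, 28.4% higher and 28.3% lower). The 2 contrasts share no libraries, and 44 of 46 genes had the same sign in both, all but Calr and Sec63. Of the 46 genes, 34 were called in both with the same sign. Neither count was made over all tested genes, so neither sets these genes apart. Sec61g was called only in Xbp1flIre1fl (-0.38, adjusted p = 0.034, against -0.34 and 0.0508 in Xbp1fl), and Canx only in Xbp1fl (-0.11, adjusted p = 0.148 in Xbp1flIre1fl, against -0.20 and 0.00963). The difference between the genotypes' changes was itself called for 0 of the 46 genes and for 0% of tested genes by edgeR, with 1 of the 46 and 329 of all tested genes at an unadjusted p under 0.05, and for 0 of the 46 by DESeq2. That 1 gene was Txndc5, which fell by 0.25 in Xbp1flIre1fl and fell by 0.57 in Xbp1fl (difference 0.31 ± 0.12 on the log2 scale, adjusted p = 1).

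Comparing the floxed lines directly, Xbp1flIre1fl against Xbp1fl, edgeR called 0 of the 46 genes in mature cells (0.142% of tested genes) and 0 in immature cells (0.134%). At an unadjusted p under 0.05 there were 6 in mature and 2 in immature cells, and the log2 differences ran from -0.09 to 0.24 in mature and from -0.15 to 0.24 in immature cells. DESeq2 called 1 in mature and 0 in immature cells. Shares over all tested genes were not counted for the unadjusted p or for DESeq2, so these counts do not set the 46 genes apart. Pdia4 differed most in mature cells: it had 224, 200.2, 216 and 229 CPM in mature Xbp1flIre1fl libraries and 188, 183, 185.5 and 179 CPM in mature Xbp1fl libraries, without overlap. Its difference of 0.24 ± 0.06 did not pass edgeR's test (adjusted p = 0.245) and passed DESeq2's (adjusted p = 0.00952). Between the floxed lines, that was the only call of the 46 genes by DESeq2. In immature cells Pdia4 differed by 0.09 ± 0.06.

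The wider pathway was read from lists of genes outside the 46. Beside the counts below stand the shares over all tested genes, 33.4% higher and 34.2% lower. Among 14 other genes of targeting and translocation 9 fell and 0 rose (median log2 change -0.24), with Srp68 of the signal recognition particle at -0.29 ± 0.04 and the translocon-associated Tram1 at -0.32 ± 0.05. Among 31 other N-glycosylation genes 20 fell and 3 rose (median -0.33). The 2 with the smallest adjusted p were among those that rose, Srd5a3, which makes the dolichol carrier, at 0.91 ± 0.07 (adjusted p = 5.6e-09) and the mannosyltransferase Alg9 at 0.56 ± 0.06 (adjusted p = 9.9e-08). Among 13 genes of membrane insertion 9 fell and 3 rose (median -0.19), with Emc1 at -0.43 ± 0.06 and Wrb at -0.84 ± 0.14. Among 22 genes of export and retrieval 13 fell and 2 rose (median -0.26), with the coat protein Sec31a at -0.35 ± 0.05 and Preb, which activates the coat's GTPase, at -0.43 ± 0.06.

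Other folding factors were divided, with 6 higher and 10 lower of 20 (median -0.04). The number higher was near the share over all tested genes (33.4% higher, 34.2% lower). Dnajc10, a reductase that helps misfolded chains out of the ER, averaged 186 ± 28.9 CPM in mature cells and 91.8 ± 7.10 CPM in immature cells (SD, 8 libraries each), a log2 change of 1.02 ± 0.08 (adjusted p = 1.0e-08), and the chaperone Erp29 fell by 0.59 ± 0.06 (adjusted p = 6.6e-08). Of 30 other degradation genes, 12 rose, 4 fell and 14 were not called (median 0.10). The number that rose was not far above the 33.4% over all tested genes. Vcp, the ATPase that pulls chains out of the membrane, averaged 1347 ± 150.0 CPM in mature cells and 761 ± 29.4 CPM in immature cells (SD, 8 libraries each), a change of 0.82 ± 0.06 (adjusted p = 2.4e-09), and its cofactor Nploc4 rose by 0.87 ± 0.07 (adjusted p = 5.0e-09). This last list turned with the scaling: 12 were higher and 8 lower with upper quartile scaling (median -0.02), and 11 higher and 15 lower with library sizes alone (median -0.12). With either of these scalings the membrane insertion and export lists, and that of the unfolded protein response, had 0 higher.

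Of 9 sensors and factors of the unfolded protein response, 2 rose, 3 fell and 4 were not called (median -0.02). Over all tested genes 33.4% were higher and 34.2% lower, so these counts do not set the list apart. Xbp1 averaged 83.4 ± 8.43 CPM in mature cells and 114 ± 11.5 CPM in immature cells (SD, 8 libraries each), a change of -0.45 ± 0.06 (adjusted p = 6.3e-06), Atf6 fell by 0.44 ± 0.05 (adjusted p = 3.8e-07) and Ern1, which encodes IRE1, fell by 0.33 ± 0.08 (adjusted p = 0.00095). Ddit3, which encodes the stress factor CHOP, rose by 0.39 ± 0.12 (adjusted p = 0.00697). Its change was 0.65 within Xbp1fl and 0.14 within Xbp1flIre1fl, and that difference was not called. Mbtps1, a protease that cleaves ATF6, rose by 0.10 ± 0.04 (adjusted p = 0.0473). Neither Ddit3 nor Mbtps1 was called higher under the other 2 scalings. Counts per gene do not show whether Xbp1 mRNA was spliced.

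How the libraries are scaled sets the level that counts as no change. The median change of all tested genes was -0.01 with TMM, -0.13 with upper quartile scaling and -0.23 with library sizes alone, and 3995 of 8095 calls (49.35%), 3213 of 8450 (38.0%) and 2716 of 8807 (30.8%) were then higher in mature cells. The 46 genes had 7 higher and 31 lower with TMM, 6 and 37 with upper quartile scaling, and 5 and 38 with library sizes alone. In the degradation class, 5 were higher and 0 lower with TMM, 5 and 3 with upper quartile scaling, and 4 and 4 with library sizes alone. The median of the 46 genes shifted together with that of all genes, to -0.46 and -0.57, so that it lay 0.33 on the log2 scale below the median of all genes under each scaling. Sel1l, Os9, Herpud1, Derl2 and Dnajb9 were called higher under each of the 3 scalings, and Edem1 under all but library sizes alone (0.13, adjusted p = 0.0638). Calr was called lower under both alternatives, at -0.13 and -0.23, the same shift as that of all genes.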

How the data were processed

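The deposited raw counts per gene symbol (24421 genes, 16 libraries) were the main data. Per the submitters' processing notes, reads were handled with FastQC 0.11.4, Trimmomatic 0.35, TopHat2 2.1.0 and SAMtools 0.1.19 on mm10, and limma 3.42.2 was used. The read counter, annotation and strandedness are not given in the sources used here. A deposited table of log2 values by the authors, whose normalization is not given, served only as an alternative. The labels' groups were fitted with edgeR 4.0.16 in R 4.3.3 (filterByExpr, TMM, robust quasi-likelihood F-test, 1 mean per group, 12 residual degrees of freedom), with Benjamini-Hochberg adjustment over 11978 genes. SE was derived from F (log2 change over its root). The fitting was tested on counts simulated from its own dispersions and scaling factors, with as many genes raised as lowered. That test does not bear on the choice of scaling. Levels are TMM-scaled CPM, and each member was counted at 237 or more in every library. TMM factors lay between 0.886 and 1.00 (mature) and between 1.06 and 1.12 (immature). The 24 replicate pairs differed by more than sampling noise (chi-square per degree of freedom 5.41 to 61.0). Gene positions, on mm10, are from GENCODE M21.

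Full values are given for the 2 genes of each functional subset with the smallest adjusted p, the 3 largest changes each way, the 3 most abundant per kb and genotype calls; from each pathway list, the 2 genes with the smallest adjusted p. The text names the exceptions. Members, lists, rule and tests were chosen with earlier results of these data known. Within a genotype, mature and immature libraries of the same number deviated together over 7881 genes (r 0.29 to 0.604 in 8 pairs, against -0.407 to 0.243 in 24 pairs of unlike number), while between genotypes they did not in every pair (-0.221 to 0.382, n = 16). Deviations were taken from group means and cancel within each group, so positive pairs of the same number lower the others by construction. The 24 pairs are therefore no independent baseline. The numbers appear to pair libraries within a genotype, as seen in the data and not stated in the labels. Alternatives were upper quartile scaling, library sizes alone, DESeq2 1.42.0, limma 3.58.1 on the log2 table, other filters, replicate blocks, and libraries left out.

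Exons overlap, on the opposite strand, those of another gene in the table for Hsp90b1, Pdia3, Pdia6, Dnajb9, Derl2, Syvn1, Spcs1, Txndc5, Txndc11, Rpn1 and Rpn2, and on the same strand for Pdia4 and Manf. Without strandedness, reads of such neighbours cannot be told apart.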

Additional observations from a re-analysis of the deposited data

Results flagged for a closer look

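In groups of 4 libraries, 5 of 184 gene and group combinations had 1 library far from the other 3 by Dixon's test, where chance gives about 1 in 20. All 5 were in immature Xbp1fl libraries. Sec61g stood at 66.7 CPM in replicate 3, against 54.3 to 55.4 CPM in the others. Ssr3 stood at 232 CPM in replicate 1, against 193.5 to 196 CPM in the others. Os9 stood at 158 CPM in replicate 1, against 176.5 to 178 CPM in the others. Ddost stood at 413 CPM in replicate 4, against 434.5 to 437 CPM in the others. Edem2 stood at 96.6 CPM in replicate 4, against 105 to 106 CPM in the others. None of these 5 genes changed its call when that library was left out.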

How the results depend on the processing

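Of the maturation changes called among the 46 genes, only that of Txndc11 changed sign under any alternative run, to -0.08 with library sizes alone (adjusted p = 0.22). Among those not called, Derl1 turned to -0.19 with library sizes alone (adjusted p = 5.0e-04) and was then called, and Derl1 and Sec62 with upper quartile scaling, Sec62 with library sizes alone and Calr in 3 alternatives changed sign without a call. The number of folding genes called higher, 2, was 1 with upper quartile scaling, with library sizes alone and without a filter on low counts, in each case through Txndc11. The number of degradation genes called lower, 0, was 3 with upper quartile scaling, 4 with library sizes alone, 1 with the replicate block across genotypes, 1 with the replicate block within genotype and 1 without the mature Xbp1flIre1fl libraries 2 and 4. Between genotypes in mature cells, 1 gene (Pdia4) was called higher by DESeq2 and 1, again Pdia4 (0.26, adjusted p = 0.0465), without those 2 libraries, against 0.

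With 1 library left out at a time, the 46 genes had 6 to 8 higher and 30 to 31 lower, folding 1 to 2 higher, translocation 0 to 1 higher and 8 to 9 lower, and degradation 0 to 1 lower; within Xbp1flIre1fl 25 to 29 and within Xbp1fl 28 to 30 genes were lower. In the mean of both genotypes, the calls that changed were those of Sec62, Spcs1, Syvn1 and Txndc11. Spcs1 was also not called with DESeq2 (adjusted p = 0.0751) or with the filter of 1 CPM in 8 libraries (0.0735). The block within genotype removed the call of Spcs1 and added that of Syvn1, and changed no other call of the mean maturation change; it was added after the libraries had been seen. The 2 other scalings lower every change of a gene by construction, as the medians in the report show; for the other alternatives the cause was not tested.

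Counts did not limit these genes. The labels do not name mice, gates or batches, so a batch that followed the groups cannot be told apart from them. The libraries measure mRNA of a sorted population, not protein or splicing.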
